A study of Mus musculus with 3 samples.

Results

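The mitochondrially encoded RNAs were taken as every row of the deposited mRNA and lncRNA tables whose GENCODE M21 gene symbol starts with mt-. The mRNA table held 36 of the 37 genes of that annotation with such a symbol, each as a single transcript, among 56651 transcript rows, and the lncRNA table held 0 of them. The 36 genes were 13 mRNAs, 2 rRNAs and 21 tRNAs, and the tRNA gene mt-Ts1 was not analysed here. The symbol chose the members without use of a measured value, though earlier results of these data were known when the set was chosen.

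The RNA came from apoptotic bodies (ABs), the membrane-bound fragments that dying cells shed, made by osteoclast-lineage cells of C57BL/6 mice aged 11 weeks. By the sample labels, bone marrow macrophages (BMMs) were grown with M-CSF at 50 ng/ml for 72 h, and all 3 groups passed through this stage. BMM-ABs came from cells without RANKL (0 h), pOC-ABs from preosteoclasts after 24 h of RANKL at 100 ng/ml, and mOC-ABs from mature osteoclasts after 72 h or longer. The sample labels give M-CSF at 30 ng/ml beside RANKL and 500 µM alendronate for 12 h as the inducer of ABs in every group. The study's methods instead name staurosporine and a longer RANKL time for the mature cells. They also give a shorter M-CSF culture of the BMMs and M-CSF at 50 ng/ml beside RANKL. The labels name the cells and the series' own text names ABs, so the libraries were taken as ABs. There was 1 library per group, so no difference below has a replicate check or a p-value, and the labels do not say how many mice stand behind a library. Intervals are exact 95% intervals computed from the reads. They cover the counting error of reads alone. With no molecular identifiers, duplicate reads of a molecule count as separate, so the intervals can be too narrow. G1 compares pOC-ABs with BMM-ABs, G2 mOC-ABs with BMM-ABs, and G3 mOC-ABs with pOC-ABs, so each library enters 2 of the 3 comparisons. The libraries are also called by the hours of RANKL, where 72 h stands for 72 h or longer, and values given without a name follow the order 0, 24 and 72 h.

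The mitochondrial genome is a small circle that is transcribed from both strands into long precursors, out of which the tRNAs are cut, and this cutting also frees most of the mRNAs and rRNAs that lie between them. The mRNAs encode subunits of respiratory complexes I, III and IV and of ATP synthase (complex V), which work together with many subunits made from nuclear genes, and the rRNAs build the mitochondrial ribosome. Osteoclasts are rich in mitochondria, which supply ATP for acid secretion and bone resorption. The 13 mRNAs were 204 to 1824 bases long in GENCODE M21 (GRCm38), the tRNAs 59 to 75 bases, and the rRNAs 955 and 1582 bases. On chromosome M, 12 mRNAs and both rRNAs lie on the plus strand of the reference and mt-Nd6 lies on the minus strand.

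The mt-tRNA sequences show how closely the genes are packed. mt-Tv, the valine tRNA, fills the space between the rRNA genes (chrM:1025-1093), and mt-Tl1, a leucine tRNA, separates the 16S rRNA from mt-Nd1 (chrM:2676-2750). mt-Tl2, the other leucine tRNA (chrM:11671-11741), and mt-Tm, the methionine tRNA (chrM:3845-3913), are shown because the first had no reads in BMM-ABs and the second passed 2-fold in G1. All are on the plus strand, written as DNA from GENCODE M21 transcripts, with the anticodon in capitals.
mt-Tv: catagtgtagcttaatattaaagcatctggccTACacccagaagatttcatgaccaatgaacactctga
mt-Tl1: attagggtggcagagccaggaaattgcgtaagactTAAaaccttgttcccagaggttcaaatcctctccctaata
mt-Tl2: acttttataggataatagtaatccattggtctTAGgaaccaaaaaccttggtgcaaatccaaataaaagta
mt-Tm: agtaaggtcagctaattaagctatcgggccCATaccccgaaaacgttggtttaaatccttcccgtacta

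Some neighbouring mRNAs share bases. The last 43 bases of mt-Atp8 are also the first 43 of mt-Atp6, and the last 7 bases of mt-Nd4l are the first 7 of mt-Nd4. The mt-Atp8 sequence (chrM:7766-7969) and the end of mt-Nd4l (chrM:10134-10173) are printed because the reads of both members of each pair diverged between libraries, with the shared bases in capitals.
mt-Atp8: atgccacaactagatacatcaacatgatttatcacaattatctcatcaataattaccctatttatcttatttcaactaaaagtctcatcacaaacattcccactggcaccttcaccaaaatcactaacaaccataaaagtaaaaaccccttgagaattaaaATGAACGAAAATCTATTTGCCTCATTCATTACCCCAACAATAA
mt-Nd4l end: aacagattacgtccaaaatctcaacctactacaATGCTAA

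The libraries were of similar depth. The mRNA table summed to 9100082 reads at 0 h, 7387317 at 24 h and 7705592 at 72 h, and ratios below are of reads per mRNA-table total unless stated. Of the 11 listed of 12 osteoclast markers, 8 had their highest level in mOC-ABs, such as Acp5 (tartrate-resistant acid phosphatase) at 88, 292 and 2157 reads, and 3 (Tcirg1, Clcn7 and Itgb3) had it in BMM-ABs. Together they had 7806, 6974 and 18041 reads of the 12734764, 11865332 and 11556957 in both tables, and the sum did not mark pOC-ABs against BMM-ABs. Tcirg1 (3890, 2316 and 3041 reads) weighed heavily in that sum. Single genes such as Acp5 and Atp6v0d2 (187, 873 and 2338) were higher in pOC-ABs than in BMM-ABs. Tcirg1, Clcn7 and Itgb3 were lower there, the last with only 6, 3 and 0 reads. The 10 macrophage markers had 54043, 20970 and 14057 reads. Of lists for other marrow cells, no neutrophil or erythroid gene was listed, and the B cell, T cell and stromal lists each summed to at most 39 reads in a library. Across genes with at least 20 reads in the compared pair, the median log2 ratios of G1, G2 and G3 were -0.02, -0.05 and -0.04, and they moved to -0.22, -0.15 and 0.06 when both tables set the scale. The sign of small log2 differences therefore depends on the scaling for some genes.

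The mitochondrial RNAs took a larger part of pOC-ABs than of the other ABs, and the rRNAs made up this difference. The 36 genes held 263655 reads at 0 h, 425210 at 24 h and 221308 at 72 h, which was 2.90%, 5.76% and 2.87% of the mRNA table. The pOC-AB level was 1.99-fold that of BMM-ABs, whereas the ratio of mOC-ABs to BMM-ABs was 0.991 and its direction turned with the scaling. Split by type, the mRNAs in G1 went the other way from the rRNAs. In these bulk samples, fewer mitochondria in the ABs and less RNA in each mitochondrion cannot be told apart.

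The rRNA share was highest in pOC-ABs. The rRNAs held 69788 reads (0.767% of the mRNA table) at 0 h, 286517 (3.88%) at 24 h and 88594 (1.15%) at 72 h. Their level was 5.06-fold higher in G1 (log2 2.34, interval 2.33 to 2.35) and 1.50-fold higher in G2 (log2 0.58, interval 0.57 to 0.60), and it was lower in G3 (log2 -1.75, interval -1.77 to -1.74). The mRNAs held 193600 reads (2.13%), 138403 (1.87%) and 132503 (1.72%) in the same order. Their log2 ratios in G1, G2 and G3 were -0.18, -0.31 and -0.12, below 0 under all 5 scalings tried. The rRNAs thus went from 26.5% of the mitochondrial reads at 0 h to 67.4% at 24 h and 40.0% at 72 h. The ratio of rRNA to mRNA reads, in which the library total cancels, was 0.360 at 0 h, 2.07 at 24 h and 0.669 at 72 h, a 5.74-fold difference in G1 and a 1.85-fold difference in G2.

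**Figure D1:**
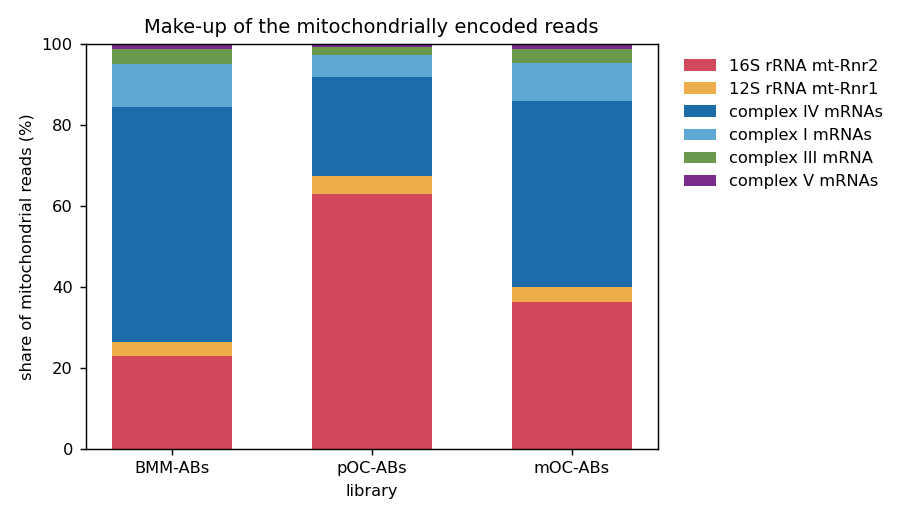
Share of the mitochondrially encoded reads (%, bars start at 0) held by each rRNA and by the mRNAs of each complex in the 3 libraries, with the tRNAs (at most 0.101%) not drawn. The rRNA blocks together reach 26.5% at 0 h, 67.4% at 24 h and 40.0% at 72 h.

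The 16S rRNA accounted for most of this. mt-Rnr2, the rRNA of the large subunit of the mitochondrial ribosome (chrM:1094-2675), had 60603 reads at 0 h, 267867 at 24 h and 80096 at 72 h. Its ratio was 5.44-fold in G1 (log2 2.44, interval 2.43 to 2.46) and 1.56-fold in G2 (log2 0.64, interval 0.63 to 0.66). mt-Rnr1, the 12S rRNA of the small subunit (chrM:70-1024), had 9185, 18650 and 8498 reads. It was 2.50-fold higher in G1 (log2 1.32, interval 1.29 to 1.36), and its G2 log2 ratio was 0.13 (interval 0.09 to 0.17). Both rRNAs were therefore highest in pOC-ABs, but by unequal amounts, although they arise next to each other from the same strand. Per kilobase, mt-Rnr2 stood at 3.98 times mt-Rnr1 in BMM-ABs (interval 3.90 to 4.07), 8.67 times in pOC-ABs (8.54 to 8.80) and 5.69 times in mOC-ABs (5.56 to 5.82), and these intervals did not overlap.

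The study's methods describe purification on poly-T beads, yet RNAs that lack a poly-A tail took a large part of the reads. Their part also differed between the libraries, and how far the selection worked was not tested. Rn7s1, Rn7s2, Rpph1 and Rmrp, the RNAs of the signal recognition particle and of RNases P and MRP, together took 14.8% of the reads of both tables at 0 h, 26.5% at 24 h and 22.2% at 72 h. Their share was thus also highest in pOC-ABs, and its part in the rRNA result was not tested.

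**Figure D2:**
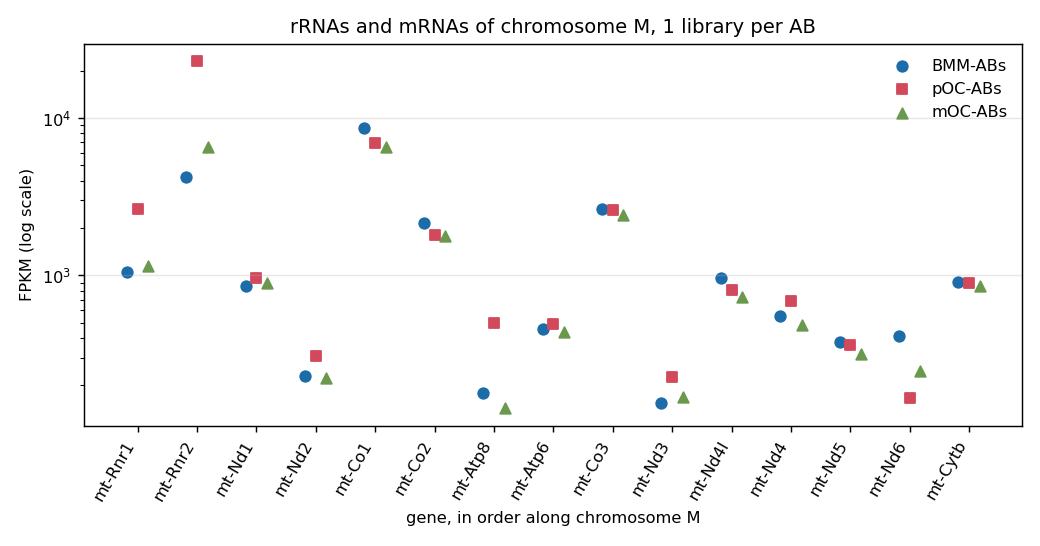
FPKM as deposited (log axis) of the rRNAs and mRNAs in their order along chromosome M, with 1 symbol per library and no error bar because there are no replicates. The pOC-AB symbol lies far above the others for mt-Rnr1, mt-Rnr2 and mt-Atp8 and below them for mt-Nd6, while mt-Co1 is the highest mRNA in all 3 libraries.

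Against a limit of 2-fold, some members separated pOC-ABs from each of the other libraries. With the main scaling and the filter on reads, no member passed it between mOC-ABs and BMM-ABs. Among genes with at least 20 reads in the pair, 5 of the 22 members in G1 were above 2-fold (mt-Rnr1, mt-Rnr2, mt-Ti, mt-Tm and mt-Atp8), against 4.11% of all 12253 genes with as many reads, and 1 was below 0.5 (mt-Nd6), against 5.62%. In G2, 0 of the 21 members were above 2-fold, against 3.67% of genes, and 0 were below 0.5, against 8.36%. In G3, 0 of the 20 members were above 2-fold, against 2.94%, and 6 were below 0.5 (mt-Rnr1, mt-Rnr2, mt-Ti, mt-Tm, mt-Tt and mt-Atp8), against 5.78%. The 1 below 0.5 in G1 and the counts of 0 in G2 and G3 were too small to set apart from these shares. mt-Ti reached 20 reads in G1 only through pOC-ABs, where it was high, and mt-Ti and mt-Tt in G3 likewise came near or past that number through pOC-ABs. With at least 100 reads, 3 members were above 2-fold in G1 (mt-Rnr1, mt-Rnr2 and mt-Atp8) and the same 3 were below 0.5 in G3. G1 and G3 share the pOC-AB library, so the genes named in both are not separate observations. The members are cut from common precursors and are not independent of each other.

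**Figure D3:**
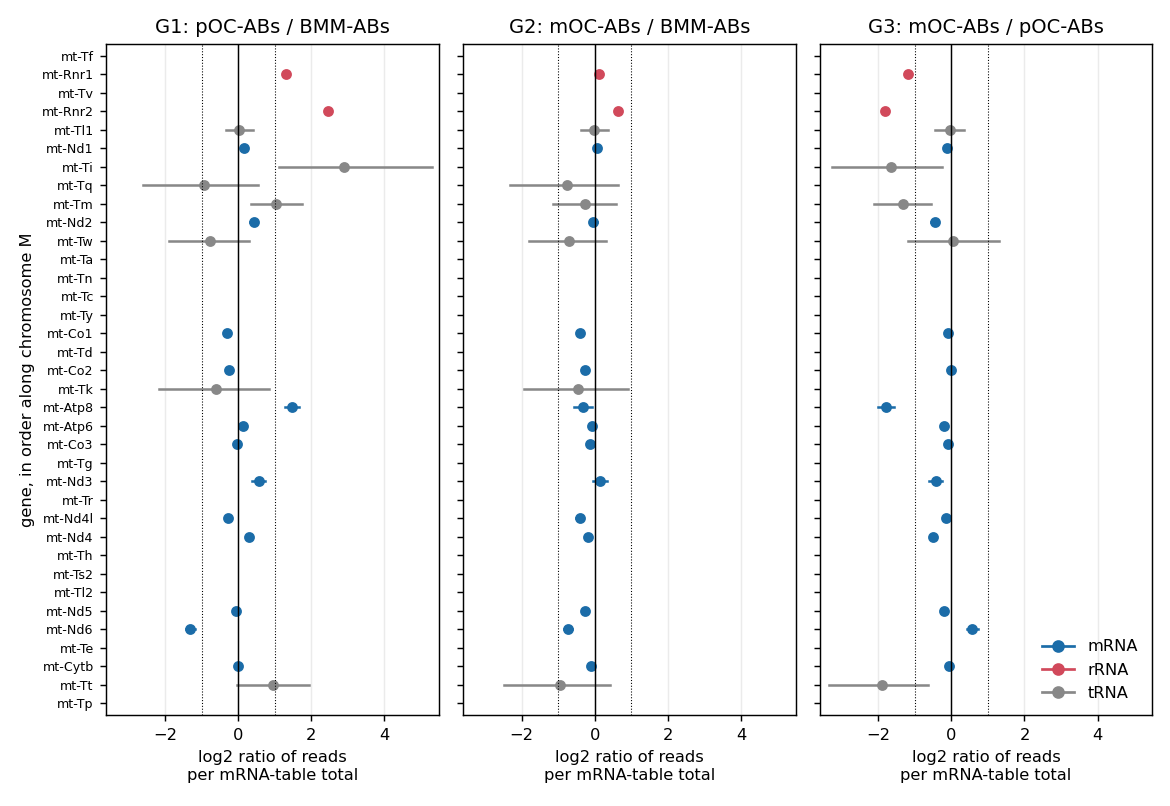
Log2 ratio of reads per mRNA-table total for the members with at least 20 reads in the compared pair, in chromosome order, with exact 95% intervals for counting error as lines and dotted lines at 2-fold. In G1 and G3 the rRNAs and mt-Atp8 lie past the dotted lines on opposite sides, and in G2 no point does. The direction turned with the scaling for mt-Tl1 in all 3 comparisons, for mt-Nd1, mt-Atp6, mt-Co3, mt-Nd5 and mt-Cytb in G1, for mt-Nd1, mt-Nd2 and mt-Atp6 in G2, and for mt-Co1, mt-Co2 and mt-Cytb in G3.

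Complex IV (cytochrome c oxidase), the last enzyme of the electron transport chain, supplied most of the mRNA reads and was lower in both RANKL groups. Its 3 mRNAs held 153079 reads at 0 h, 103590 at 24 h and 101464 at 72 h. The log2 ratio of the sum was -0.26 in G1 (interval -0.27 to -0.25) and -0.35 in G2 (interval -0.36 to -0.34), and that of G3 (-0.09) turned with the scaling. mt-Co1, the catalytic subunit (chrM:5328-6872), had 120765, 79436 and 77386 reads, or 62.4%, 57.4% and 58.4% of all mitochondrial mRNA reads. It ranked first per kilobase among the mRNAs in each library, at an FPKM of 8589, 6960 and 6500. Its log2 ratio was -0.30 in G1 and -0.40 in G2. mt-Co2, which carries the copper site that takes electrons from cytochrome c, had 13344, 9070 and 9432 reads, and its log2 ratio was -0.26 in both G1 and G2. mt-Co3, a core subunit without a metal site, had 18970, 15084 and 14646 reads, and its G1 log2 ratio of -0.03 changed sign with the scaling while that of G2 (-0.13) did not.

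The mRNA sum rested largely on mt-Co1 in G1. Without it, the other 12 mRNAs held 72835 reads at 0 h, 58967 at 24 h and 55117 at 72 h. Their G1 log2 ratio was -0.0039 (interval -0.020 to 0.012) and changed sign with the scaling, while the G2 ratio was -0.16 (interval -0.18 to -0.15) and kept its sign. Compared with mt-Co1 inside each library, mt-Rnr2 went from 0.490 times its level per kilobase in BMM-ABs to 3.29 times in pOC-ABs and 1.01 times in mOC-ABs. The most abundant mitochondrial RNA per kilobase was therefore mt-Co1 in BMM-ABs and mt-Rnr2 in pOC-ABs, and in mOC-ABs they lay within 1.01-fold of each other.

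Complex I (NADH dehydrogenase), the entry point for electrons from NADH, was mixed. Its 7 mRNAs held 27908, 23979 and 21023 reads, and their log2 ratio was 0.08 in G1, with a sign that turned with the scaling, -0.17 in G2 (interval -0.19 to -0.14) and -0.25 in G3 (interval -0.28 to -0.22). In G1, 4 of the 7 were higher in pOC-ABs and 3 lower. mt-Nd4, a proton-pumping subunit, had 6921 reads at 0 h, 6958 at 24 h and 5135 at 72 h, with log2 ratios of 0.31 in G1 (interval 0.26 to 0.36), -0.19 in G2 and -0.50 in G3. mt-Nd2, another proton-pumping subunit, had 2157, 2346 and 1784 reads and a G1 log2 ratio of 0.42 (interval 0.34 to 0.51). Both were thus highest in pOC-ABs, with G1 signs that held under all scalings.

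The smaller membrane subunits of complex I did not move together. mt-Nd3 had 487, 583 and 453 reads and a G1 log2 ratio of 0.56 (interval 0.38 to 0.74). mt-Nd4l, whose end overlaps mt-Nd4 in the sequence shown above, had 2619, 1762 and 1670 reads, with log2 ratios of -0.27 in G1 and -0.41 in G2. In G1, the reads counted on mt-Nd4l were therefore lower while those on the overlapping mt-Nd4 were higher. The ratio of mt-Nd4l to mt-Nd4 per kilobase went from 1.76 in BMM-ABs to 1.17 in pOC-ABs and 1.51 in mOC-ABs. Because the genes overlap, these reads need not come from separate RNAs. mt-Nd1, a membrane-arm subunit next to the quinone site, had 7479, 6799 and 6550 reads, and the sign of its ratio depended on the scaling in G1 and G2. mt-Nd5, the longest of the mRNAs and the outermost proton-pumping subunit, had 6301, 4893 and 4439 reads. Its log2 ratio of -0.06 in G1 turned with the scaling, and that of G2 was -0.27.

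mt-Nd6, the mRNA of the minus strand (chrM:13552-14070), behaved unlike the other complex I mRNAs. It had 1944 reads at 0 h, 638 at 24 h and 992 at 72 h. Its level was lower in G1 (log2 -1.31, interval -1.44 to -1.18) and in G2 (log2 -0.73, interval -0.84 to -0.62) and higher in G3 (log2 0.58, interval 0.43 to 0.72). Its level was thus lowest in pOC-ABs, while the other complex I mRNAs had their lowest level in BMM-ABs or mOC-ABs. Its 3′ end overlaps that of mt-Nd5 by 14 bases, and the ratio of mt-Nd5 to mt-Nd6 per kilobase was 0.922 at 0 h, 2.18 at 24 h and 1.27 at 72 h. The kit named in the methods does not mark strand and the strand setting of the counting is not given, so reads from precursor RNA of the opposite strand cannot be told apart from mt-Nd6 reads.

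Complex III is represented by mt-Cytb, the cytochrome b subunit that passes electrons from ubiquinol. It had 9464, 7600 and 7516 reads, a nearly flat G1 log2 ratio of -0.02 (interval -0.06 to 0.03) and a G2 ratio of -0.09, and the sign turned with the scaling in G1 and G3. Per kilobase it held rank 5 of the 13 in every library. Together with mt-Co3 and mt-Nd4, mt-Cytb ends in a T past its last full codon, where the poly-A tail completes the stop codon. These 3 mRNAs held 35355, 29642 and 27297 reads, with a G2 log2 ratio of -0.13 (interval -0.16 to -0.11) and a G1 ratio of 0.05 that turned with the scaling.

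The ATP synthase mRNAs, which share the bases printed above, diverged from each other in pOC-ABs. mt-Atp8, a small subunit of the membrane part, had 334 reads at 0 h, 749 at 24 h and 225 at 72 h. It was 2.76-fold higher in G1 (log2 1.47, interval 1.28 to 1.66) and lower in G3 (log2 -1.80, interval -2.02 to -1.58), with a G2 log2 ratio of -0.33 (interval -0.58 to -0.08). mt-Atp6, the subunit of the proton channel, had 2815, 2485 and 2275 reads, with a G1 log2 ratio of 0.12 and a G2 ratio of -0.07, both of which changed sign with the scaling. The 2 proteins are made from a shared transcript, yet the ratio of mt-Atp8 to mt-Atp6 per kilobase was 0.396 in BMM-ABs (interval 0.353 to 0.444), 1.01 in pOC-ABs (0.926 to 1.09) and 0.330 in mOC-ABs (0.287 to 0.379). The pOC-AB ratio stood apart from the others, which were close together. How the authors' counting split reads over the shared 43 bases is not given in the sources used here.

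Length went along with the direction of nuclear genes between these libraries. Among nuclear protein-coding genes with at least 20 reads in the pair, classed by the read-weighted mean length of their transcripts, the median G1 log2 ratio was 0.22 for the 65 genes with transcripts under 500 bases, 0.32 for the 652 from 500 to 1000 bases, 0.06 for the 2508 from 1000 to 2000 bases and -0.12 for the 7519 that were longer. Of the 3 mitochondrial mRNA genes annotated at under 500 bases, mt-Atp8 and mt-Nd3 were higher in G1 and mt-Nd4l was lower. mt-Atp8 and mt-Nd4l overlap longer genes, so their annotated lengths need not be those of the RNAs. They cannot be set directly against the nuclear length classes. The part of transcript length in these results was not tested.

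**Figure D4:**
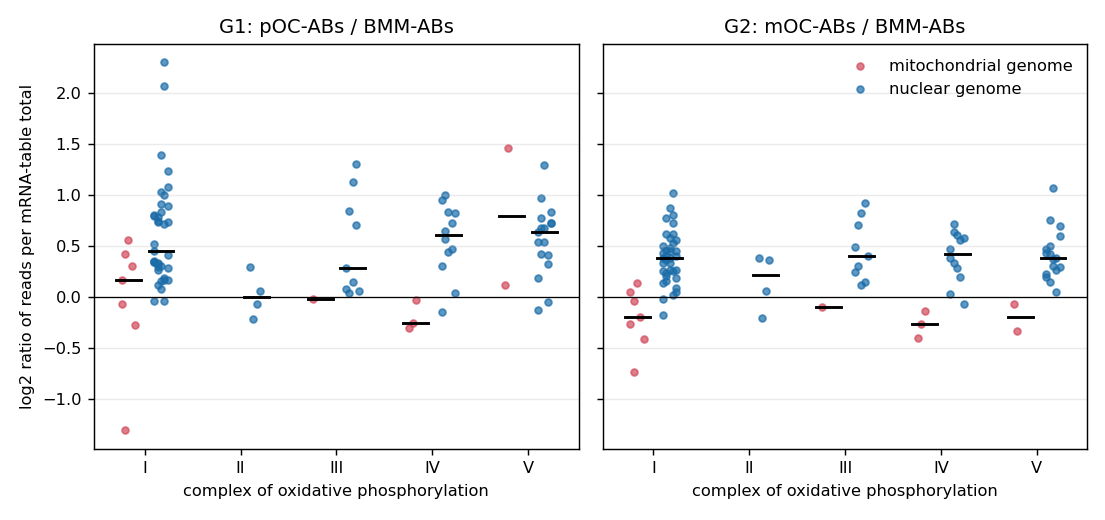
Log2 ratio of reads per mRNA-table total for each mitochondrially encoded and each nuclear-encoded subunit, by complex, in G1 and G2, where points are genes and black bars are medians. In complex IV the mitochondrial median lies below 0 (-0.26 in both panels) and the nuclear median above it (0.61 in G1, 0.43 in G2). The direction of mt-Nd1, mt-Atp6, mt-Co3, mt-Nd5 and mt-Cytb in G1 and of mt-Nd1, mt-Nd2 and mt-Atp6 in G2 turned with the scaling, as did that of nuclear genes near 0.

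Nuclear genes for the same complexes were mostly higher in the RANKL groups. Of 80 nuclear subunit genes on the list, 79 were listed in the files, and 72 were higher and 7 lower in G1, with 10 above 2-fold (all genes 4.11%), 0 below 0.5 (all genes 5.62%) and a median log2 ratio of 0.52. With both tables as the scale these G1 counts were 59 higher and 20 lower, with 6 above 2-fold and a median of 0.32. In G2, 75 were higher and 4 lower, with 2 above 2-fold (all genes 3.67%), 0 below 0.5 (all genes 8.36%) and a median of 0.38. In G3, 28 were higher and 51 lower, with 0 above 2-fold (all genes 2.94%), 2 below 0.5 (all genes 5.78%) and a median of -0.13. The corresponding medians over all genes were -0.02, -0.05 and -0.04. Those of nuclear protein-coding genes with transcripts of 500 to 1000 bases were 0.32, 0.20 and -0.15. The subunit genes were not matched to other genes by length, so the part of length in their medians was not tested. For complex IV the sums of the nuclear and mitochondrial subunits lay on opposite sides of 0 under all scalings in G1 and in G2, with log2 ratios of 0.44 and -0.26 in G1 and 0.39 and -0.35 in G2. Cox4i1 (3352, 2452 and 2894 reads), Cox8a (2829, 2830 and 3332) and Cox7a2l (1887, 2079 and 2434), the nuclear complex IV genes with the most reads, gave G1 log2 ratios of -0.15, 0.30 and 0.44, so the most abundant of them did not follow the median. For complex I the nuclear sum was at 0.44 in G1 and 0.34 in G2, beside -0.17 for the mitochondrial sum in G2, and for complex V it was at 0.34 and 0.35, beside 0.34 and -0.09. The 4 genes of complex II, which has no mitochondrially encoded subunit, had a median of -0.0038 in G1 and 0.21 in G2.

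Among the nuclear subunits past 2-fold in G1, Ndufa12, an accessory subunit of complex I, had 82 reads in BMM-ABs and 279 in pOC-ABs (4.19-fold), and Uqcrb, a subunit of complex III, had 351 and 702 (2.46-fold). Cycs, the cytochrome c that carries electrons between complexes III and IV, had 225, 492 and 281 reads (2.69-fold in G1). It belongs to a list of 19 nuclear genes for mitochondrial matrix and membrane proteins, whose G1 median was 0.0056. Cycs was the sole gene of that list past 2-fold in G1, a count too small to set apart from the share of all genes (4.11% above 2-fold).

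Of the nuclear genes that make and process mitochondrial RNA, at most 1 a list was past 2-fold in a comparison, counts too small to set apart from the shares of all genes given above. Of 15 tested genes for transcription and replication, 0 were past it in G1 or G2, with median log2 ratios of -0.04 and -0.09, and Polg2, the accessory subunit of the DNA polymerase, was below 0.5 in G3 (log2 -1.34). Polg, the mitochondrial DNA polymerase, had the most reads of them, with a log2 ratio of -0.63 in G1 (interval -0.81 to -0.45). Of 15 genes for processing and modification, Hsd17b10, a subunit of mitochondrial RNase P that cuts the 5′ ends of tRNAs, was the sole one past 2-fold, with 474, 601 and 1360 reads (3.39-fold in G2 and 2.17-fold in G3). Elac2, which cuts the 3′ ends, had log2 ratios of -0.20 in G1 and 0.02 in G2, the second with a sign that turned with the scaling. Of 14 genes for stability and decay, 0 were past 2-fold in any comparison, and Lrpprc, which stabilises mitochondrial mRNAs, had log2 ratios of 0.26 in G1 and 0.34 in G2.

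The tRNAs took few reads. The 21 listed tRNAs summed to 267 reads at 0 h, 290 at 24 h and 211 at 72 h, or 0.101%, 0.0682% and 0.0953% of the mitochondrial reads. Their log2 ratio was 0.42 in G1 (interval 0.18 to 0.67), -0.10 in G2 (interval -0.37 to 0.17) and -0.52 in G3 (interval -0.78 to -0.26). With both tables as the scale, the G1 ratio was 0.22 with an interval that covered 0 (-0.024 to 0.47). Mature tRNAs are short and lack a poly-A tail, and reads may also stem from precursors. The median was 2 reads a tRNA at 0 h, 6 at 24 h and 3 at 72 h, and 12, 8 and 11 of the 21 had 3 reads or fewer, so a difference in most single tRNAs was not detectable at this depth.

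mt-Tl1, printed above, held 132 reads at 0 h, 110 at 24 h and 111 at 72 h, or 49.4%, 37.9% and 52.6% of all tRNA reads. Its level was nearly flat, with a G1 log2 ratio of 0.04 (interval -0.34 to 0.41) whose sign turned with the scaling. Without it, the other 20 tRNAs had 135, 180 and 100 reads, and their log2 ratio was 0.72 in G1 and -0.91 in G3. mt-Tm, printed above, had 30, 50 and 21 reads and was 2.05-fold higher in G1 (log2 1.04, interval 0.36 to 1.74), though under 2-fold with both tables as the scale. mt-Ti, the isoleucine tRNA, had 3, 18 and 6 reads and a G1 log2 ratio of 2.89 (interval 1.11 to 5.29). Both were highest in pOC-ABs, and the width of the second interval reflects its few reads. mt-Tl2 had 0 reads at 0 h, 9 at 24 h and 3 at 72 h, too few for the 2-fold count. Against a floor of 3 reads in BMM-ABs, its 9 reads in pOC-ABs, taken without error, would stand 3.70-fold higher, which is not a lower limit. The exact interval of its G1 log2 ratio began at 1.28.

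mt-Tt, the threonine tRNA, had 16, 25 and 7 reads and was lower in G3 (log2 -1.90, interval -3.35 to -0.65). mt-Tv, the tRNA between the rRNA genes, had 2, 8 and 8 reads, too few for the 2-fold count. mt-Tw, mt-Tq and mt-Tk had 25, 14 and 13 reads at 0 h, 12, 6 and 7 at 24 h and 13, 7 and 8 at 72 h, and their intervals covered 0 in every comparison. mt-Te (9, 4 and 5 reads) and mt-Tp (7, 10 and 8) were in the same position. The other 10 tRNAs (mt-Tf, mt-Ta, mt-Tn, mt-Tc, mt-Ty, mt-Td, mt-Tg, mt-Tr, mt-Th and mt-Ts2) had at most 7 reads in a library. By the strand of the gene, the 14 plus-strand tRNAs held 232, 262 and 187 reads and the 7 listed minus-strand tRNAs 35, 28 and 24. The G1 log2 ratio was 0.48 (interval 0.22 to 0.74) for the first and -0.02 (interval -0.79 to 0.74) for the second, whose sign turned with the scaling. As for mt-Nd6, the strand of the reads is not known, so these sums do not show a difference between strands.

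Part of the mitochondrial mRNA reads may have been assigned to copies of chromosome M in the nuclear genome. A sequence search found 11 listed nuclear transcripts that match a mitochondrial mRNA over at least 100 bases at 95% identity or more, with 18995 reads at 0 h, 15844 at 24 h and 13334 at 72 h. No listed copy of an rRNA was found. Of these transcripts, 7 lie in a row on the minus strand of chr1:24611535-24616197 (GRCm38), where they follow the gene order of chromosome M, and they held 16074, 13746 and 11289 reads. Gm28439, Gm10222, Gm28437, Gm10925 and Gm28661 had 0 mismatches to mt-Nd4, mt-Nd4l, mt-Co3, mt-Atp6 and mt-Co2 over their aligned length. The other 2 differed by 1 base each, in capitals below and numbered from 1 at the 5′ end of the mitochondrial gene: T3C in Gm28438, the copy of mt-Nd3 (chrM:9459-9481 shown), and A1066T in Gm29216, the copy of the end of mt-Co1 (chrM:6390-6413 shown).
mt-Nd3 window: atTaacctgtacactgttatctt
Gm28438 window: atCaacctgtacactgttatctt
mt-Co1 window: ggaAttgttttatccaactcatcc
Gm29216 window: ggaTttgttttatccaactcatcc

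Reads without those bases cannot be told apart between gene and copy, so the split depends on how the authors' tools placed them. Gm10925 took 44.8%, 47.8% and 42.6% of the reads of mt-Atp6 and itself at 0, 24 and 72 h, and Gm28437 took 19.7%, 20.5% and 19.0% of those of mt-Co3 and itself. Gm28661 took 17.4%, 19.8% and 18.3% of the mt-Co2 pair. For each of the 7 the share was highest in pOC-ABs. Adding the copies moved the G1 log2 ratio of mt-Atp6 from 0.12 to 0.20 and that of mt-Co2 from -0.26 to -0.21, and it changed the sign of none of the 9 mRNAs with a copy in any comparison under the main scaling. mt-Atp8, mt-Nd6, mt-Nd1, mt-Cytb and the rRNAs had no listed copy by this search. It covered annotated transcripts alone, so a copy without annotation would be missed. mt-Atp8 lies between mt-Co2 and mt-Atp6 on chromosome M. On chromosome 1 their copies leave a gap, from the end of Gm10925 (24614651) to the start of Gm28661 (24614885), which was not searched. The ratio of mt-Atp8 to mt-Atp6 was not corrected for copies.

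**Figure D5:**
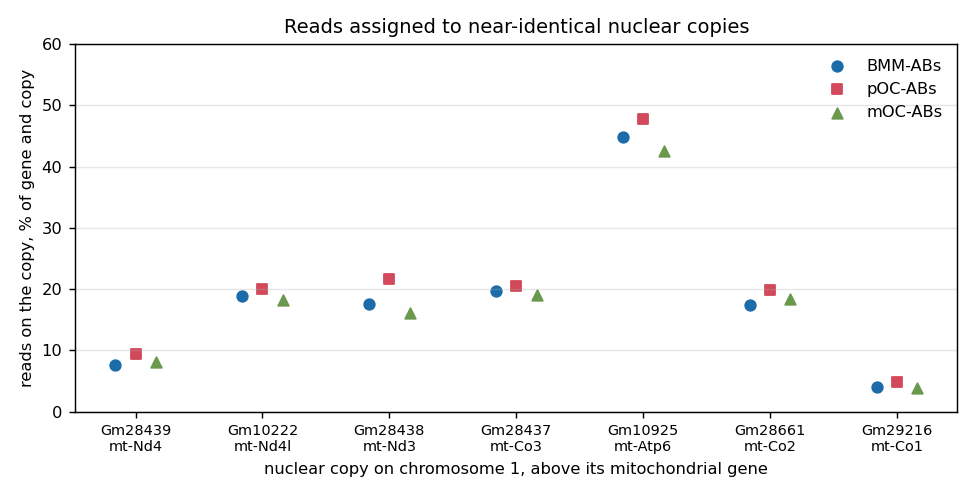
Reads assigned to each nuclear copy on chromosome 1 as a percent of the reads of the copy and its mitochondrial gene together (axis from 0), by library. Gm10925, the copy of mt-Atp6, lies between 42.6% and 47.8%, and the highest other value is 21.6% (Gm28438 in pOC-ABs).

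The circRNA table of 1372 circRNAs held 1 entry on chromosome M. It spans 204 bases of mt-Rnr2 (chrM:1359-1562) and is listed on the minus strand, opposite to the gene. It had 2 junction reads in BMM-ABs and 0 in the others, at or under the floor of 3 reads, so no difference was detectable. The 6 bases before its start equal the last 6 bases of its span, in capitals in these 40-base windows of the plus strand (chrM:1339-1378 and chrM:1543-1582).
mt-Rnr2 circ start: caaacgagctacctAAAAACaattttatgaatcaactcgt
mt-Rnr2 circ end: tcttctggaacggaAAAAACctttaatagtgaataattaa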

How the data were processed

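The study's methods describe paired-end libraries of total AB RNA after purification on poly-T beads (TruSeq RNA kit). RNAs without a poly-A tail nevertheless held 14.8% to 26.5% of the reads of both tables. The authors deposited a read count and FPKM for each transcript of the mRNA and lncRNA tables, and a circRNA table of junction read counts. The submitters' processing notes name FastQC, HISAT2, StringTie and GRCm38, while versions and the circRNA caller are not given in the sources used here. The deposited FPKM equals the count divided by transcript length and the mRNA-table total. All per-sample columns were matched to a sample by RANKL time (0 unmatched).

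The members and lists were chosen with earlier results of these data known. Every member was described. Of each other list the 3 genes with the most reads and those past 2-fold with at least 20 reads in the pair set which genes could be named, and a selection of them is given. The markers, the non-polyadenylated RNAs and the length classes were added for context. Reads were summed per GENCODE M21 gene (of mRNA-table reads, 0.152%, 0.138% and 0.129% at 0, 24 and 72 h had no gene there) and scaled by the mRNA-table total. Ratios carry exact binomial (Clopper-Pearson) 95% intervals from the split of reads in the pair. A floor of 3 reads was 3.30e-05% to 4.06e-05% of a library. Copies were found with BLAST 2.17.0 (e-value limit 1e-05). Other scalings were the total of both tables, median-of-ratios size factors over 12591 genes, the upper quartile (percentile 75) and the nuclear protein-coding reads. Python 3.11.15, numpy 2.4.6, scipy 1.17.1 and pandas 2.3.3 were used, and the interval code was tested on simulated data.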

Additional observations from a re-analysis of the deposited data

Results flagged for a closer look

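Gm13340, a copy of the whole of mt-Co1 on chromosome 2 at 97.6% identity, stands in the lncRNA table, which held no member. It was picked out as signal outside the main measurement. It had 2879 reads at 0 h of RANKL (BMM-ABs), 2060 at 24 h (pOC-ABs) and 2013 at 72 h (mOC-ABs), above the floor of 3 reads, or 2.33%, 2.53% and 2.54% of its reads and those of mt-Co1 together.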

How the results depend on the processing

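Of 60 values recomputed under an alternative, 27 moved by less than their counting interval (for counts, by less than 1.5 times), 33 moved by more and 0 reversed. With the total of both tables, size factors, the upper quartile and nuclear protein-coding reads as scale, in this order, the mRNA log2 ratio was -0.38, -0.17, -0.14 and -0.10 for G1. For G2 it was -0.41, -0.25, -0.23 and -0.27, and for G3 -0.025, -0.082, -0.098 and -0.17. The rRNA log2 ratio was 2.14, 2.36, 2.39 and 2.42 for G1. For G2 it was 0.48, 0.64, 0.66 and 0.62, and for G3 -1.66, -1.71, -1.73 and -1.80. Adding the nuclear copies gave -0.16 in G1 and -0.14 in G3 for the mRNAs, and no value for the rRNAs, which had no listed copy. Without mt-Tl1, an alternative chosen after seeing the data, the tRNA log2 ratio was 0.72 in G1 and -0.91 in G3. The number of members past 2-fold went from 6, 0 and 6 in G1, G2 and G3 to 15, 3 and 15 without a filter on reads, because tRNAs with few reads then counted. It was 1 in G2 with both tables as scale (mt-Tt) and 3 in G3 at a minimum of 100 reads, where tRNAs dropped out. Another 39 values, the shares of the mRNAs from the deposited FPKM, matched those per kilobase by construction.

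With 1 library per group the spread between cultures is unknown, and the narrow intervals of abundant RNAs say nothing of it. No paired analysis was possible because the columns carry no shared replicate number beyond a single library per group. Depth limits the tRNAs, of which most had under 20 reads in a library.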
